A study of Mus musculus with 16 samples.

Results

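The Hox genes of cultured mouse aortic smooth muscle cells were examined, wild type against Hey2 knockout, over 8 hours of platelet-derived growth factor. Members were the probe sets of the array whose platform annotation gives exactly 1 gene symbol made of Hox, a cluster letter from a to d, and a number. This rule found 48 of 45101 probe sets, for 33 of the 39 Hox genes that RefSeq lists for the mouse. The other 6 were not analysed here, and 3 probe sets that carry a pair of symbols were left out. A probe set was tested when its normalized signal exceeded 16 on at least 3 of the 16 arrays. That left 24 genes on 33 probe sets, and the brightest of these spoke for its gene. The 9 genes not tested were Hoxb7, Hoxb13, Hoxc10, Hoxd1, Hoxd8 and Hoxd10 to Hoxd13.

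The cells came from explanted aortas stripped of adventitia, were stained for smooth muscle alpha actin and calponin as a purity check, and were used at passage 10 to 20. Wild-type and Hey2 KO cells shared a mixed C57BL/6 and 129SvJ background. Hey2 is a transcriptional repressor downstream of Notch. The labels give neither the knockout allele nor the age of the mice, nor how many animals or cell isolates stand behind a genotype. Confluent cultures of both genotypes were held for 48 hours in 0.4% serum and then received 5 ng/ml human PDGF-BB, a mitogen for smooth muscle cells. RNA was taken at 0, 15, 30, 60, 120, 180, 240 and 480 min, with 1 array for each genotype and time and none repeated. The 8 arrays of a genotype are therefore time points, and p-values measure the spread between time-matched arrays, which may be technical. Without an untreated time course in this comparison, growth factor and time in fresh medium cannot be told apart.

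Hox genes encode homeodomain transcription factors that lie in the Hoxa, Hoxb, Hoxc and Hoxd clusters. Within a cluster the order of the genes on the chromosome follows the order in which they are expressed from head to tail of the embryo, low numbers in front and high numbers behind. Genes with the same number in different clusters are paralogs. Adult mesenchymal cells, vascular smooth muscle included, keep part of this code as a record of the body level they came from, and Polycomb and trithorax proteins hold it in place. Most Hox proteins bind DNA together with TALE homeodomain partners of the Pbx, Meis and Pknox families.

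A few facts of the series touch the results. The deposited arrays differed in brightness, with a 2% trimmed mean of 81.0 to 342.5, and were quantile normalized. Differences were taken on the scale log2(signal + 4.856), which understates changes of dim genes, and were fitted with limma over all 14299 tested genes with Benjamini-Hochberg adjustment at 0.05. A pair of wild-type labels is in doubt. Over all genes, the changes of the wild-type array labelled 60 min correlated at 0.57 with knockout 480 min and at -0.33 with knockout 60 min. Those of the wild-type array labelled 480 min correlated at 0.46 with knockout 60 min and at -0.38 with knockout 480 min. The remaining 6 times gave 0.38 to 0.52, across genes that are not independent. The probe set of Hey2 did not differ detectably between the genotypes (knockout minus wild type -0.19, SE 0.32, limma adjusted p = 0.697). The sources used here do not place this probe set relative to the deletion, so it does not check the labels. Summed over 12 smooth muscle markers the signal was 25338 to 30656 in wild type and 16366 to 20055 in the knockout, with 9 of the 12 lower in the knockout. Summed over 13 mesothelial and epithelial markers it was 1988 to 3067 against 13995 to 16526, with 10 of the 13 higher and 2 lower. Of 8 endothelial markers 4 were tested, with sums of 50.7 to 114 and 38.5 to 92.8, and Pecam1, Cdh5, Vwf and Tie1 did not reach the test. The fibroblast markers summed to 1838 to 6790 and 2929 to 5199, with 4 of the 7 tested higher (Thy1, Serpinf1, Dpt and Dcn) and 1 lower (Lum). Thy1, Serpinf1 and Dpt exceeded the filter signal on 3, 4 and 1 of 8 wild-type arrays, and on all 8 knockout arrays. The 5 tested leukocyte markers summed to 478 to 899 and 762 to 1355, with Ptprc and Itgam not reaching the test. These shifts move with genotype, as some Hox genes do, and their part in the Hox results was not tested. In bulk RNA, fewer cells of a type and less RNA per cell cannot be told apart.

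The bases upstream of 3 Hoxa genes are shown as examples from these results. Hoxa2 fell after PDGF-BB and was not called by genotype over all times. Hoxa5 and Hoxa9 fell and were higher in the knockout, and Hoxa9 had the largest increase in the knockout among the tested Hox genes. Hoxb3, Hoxb9 and Hoxc8, which were lower in the knockout, had no promoter entry. Each run holds the 250 bases before the start site in RefSeq (GRCm38.p6), 5′ to 3′ on the minus strand. The regions are chr6:52164832-52165081 for Hoxa2, chr6:52204588-52204837 for Hoxa5 and chr6:52227371-52227620 for Hoxa9. Capitals mark a match to TGATNNAT, the joined sites that Hox and Pbx proteins can bind together, searched on both strands.
Hoxa2: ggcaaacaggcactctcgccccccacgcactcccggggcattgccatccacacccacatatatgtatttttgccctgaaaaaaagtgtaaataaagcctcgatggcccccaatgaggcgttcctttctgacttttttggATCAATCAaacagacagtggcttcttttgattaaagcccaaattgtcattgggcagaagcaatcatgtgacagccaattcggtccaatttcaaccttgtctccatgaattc
Hoxa5: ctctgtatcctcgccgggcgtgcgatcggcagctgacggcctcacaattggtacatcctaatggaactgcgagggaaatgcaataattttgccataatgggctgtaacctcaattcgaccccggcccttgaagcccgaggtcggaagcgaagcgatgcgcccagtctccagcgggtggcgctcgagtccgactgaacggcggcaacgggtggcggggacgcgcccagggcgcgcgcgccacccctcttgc
Hoxa9: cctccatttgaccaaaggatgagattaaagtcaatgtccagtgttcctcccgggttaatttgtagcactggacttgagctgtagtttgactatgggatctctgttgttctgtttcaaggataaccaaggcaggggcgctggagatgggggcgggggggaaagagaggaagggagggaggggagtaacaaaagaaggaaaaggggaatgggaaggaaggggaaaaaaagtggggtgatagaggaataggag
Of the 24 tested genes, 13 had an entry in the promoter table, with 14 windows in all. TGATNNAT was found in 2 windows, those of Hoxa2 and Hoxb1, and in 7.68% of all 32851 windows of this length. CACGTG, the E-box core that proteins of the Hey family can bind, was found in 0 of the 14 and in 6.02% of all. A match is a string of letters, not a shown binding site.

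The arrays detected Hox transcripts of the Hoxa, Hoxb and Hoxc clusters. Of the 24 tested genes, 13 were above the filter signal on all 16 arrays: 5 of 9 in Hoxa, 5 of 7 in Hoxb, 3 of 6 in Hoxc and 0 of 2 in Hoxd. Hoxd3 and Hoxd9, the tested Hoxd genes, had signals of 1.63 to 23.4 and 3.13 to 22.0. The posterior genes Hoxa11, which patterns forearm and kidney, and Hoxa13, which patterns digits and genital tract, stayed near the filter at 1.58 to 48.2 and 2.90 to 22.8. Hoxb1, a hindbrain gene, ran from 1.86 to 17.4, Hoxc9 from 3.71 to 23.0 and Hoxc13 from 1.39 to 21.7. Between genotypes and between early and late times none of these 7 genes was called, and signals of this size sit where the array measures little. Hox clusters are dense and also give antisense and read-through transcripts, which a probe set may not separate from the gene it is named for.

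The first question was which Hox genes distinguish knockout from wild-type cells. In the knockout 5 of 24 were higher (Hoxa5, Hoxa7, Hoxa9, Hoxa10 and Hoxc4), beside 16.5% of all genes tested, and 3 were lower (Hoxb3, Hoxb9 and Hoxc8), beside 14.1%. These shares are near the background, so the number of called Hox genes is not a result about them. The median difference was -0.01 for the Hox genes and -0.02 for all genes. By cluster, 4 of the 5 higher genes lay in Hoxa at paralog numbers 5 to 10, and Hoxa2, Hoxa3 and Hoxa4 were not called (-0.01, -0.28 and -0.06). Both called Hoxb genes were lower, and Hoxc held 1 of each.

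**Figure D1:**
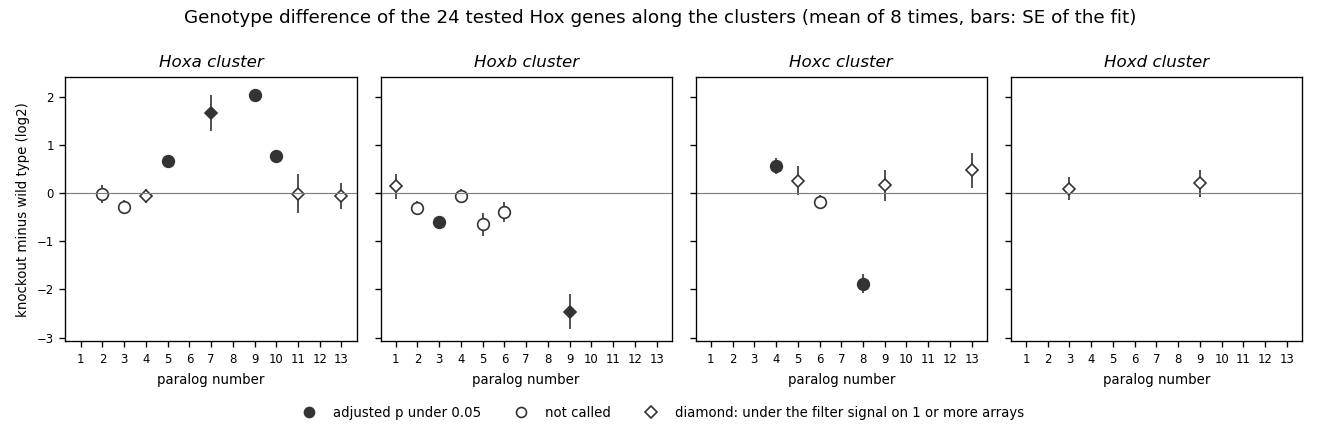
Knockout minus wild type (log2, mean over 8 times, bars are the SE of the limma fit) for the 24 tested Hox genes, by cluster and paralog number. Filled symbols passed an adjusted p of 0.05, and diamonds mark genes under the filter signal on at least 1 array; Hoxa5, Hoxa7, Hoxa9 and Hoxa10 lie above 0, while Hoxb3, Hoxb9 and Hoxc8 lie below it.

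Hoxa9, a posterior gene known for its part in blood progenitors, was read at 322, 374 and 282 at 0, 15 and 30 min in wild type. It stood at 271 in the library labelled 60 min, at 116, 230 and 212 from 120 to 240 min, and at 123 in the library labelled 480 min. In the knockout it was read at 1526, 1610 and 1246, then 645 at 60 min, then 700.5, 975 and 780.0, and 578 at 480 min. Every knockout array lay above every wild-type array. The difference was 2.04 (SE 0.13, 16 arrays, limma adjusted p = 9.86e-07), a 4.12-fold difference, and the knockout was higher at 8 of 8 times. A second tested probe set of Hoxa9 gave 0.97 (SE 0.20), called in the same direction, so the size depends on the probe set.

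Hoxa7, a trunk-patterning gene, had wild-type signals of 183, 171 and 224 early, 28.9 in the library labelled 60 min, 78.0, 44.4 and 5.67 from 120 to 240 min, and 147 in the library labelled 480 min. The knockout had 403, 425 and 334, then 308, then 203, 196 and 148, then 153. The knockout array was the higher one at 8 of 8 times, although the ranges of the genotypes overlapped. The difference was 1.68 (SE 0.38, limma adjusted p = 0.00591). Over the times from 0 to 30 min alone it was 0.99, and from 120 to 240 min 2.41, where the dim wild-type 240 min array enters. Without the 240 min arrays, the difference over the other 7 times was 1.37.

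Hoxa5, which acts in lung and airway mesenchyme, was at 725, 748 and 764 early in wild type, 276 in the library labelled 60 min, 172, 186 and 184 from 120 to 240 min, and 419 in the library labelled 480 min. In the knockout it was at 1074, 1110 and 864, then 543, then 340.2, 427 and 354, then 420. The knockout was higher at 8 of 8 times, by 0.67 on average (SE 0.14, limma adjusted p = 0.00339), and the ranges of the genotypes overlapped. Both tested probe sets were called, and without time as a block the call was lost.

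Hoxa10, which patterns uterus and lumbar segments, ran from 52.9 to 151 in wild type and from 123 to 242 in the knockout, higher at 8 of 8 times (0.78, SE 0.11, limma adjusted p = 4.15e-04). Hoxc4 ran from 37.9 to 101 and from 76.2 to 114 (0.57, SE 0.17, limma adjusted p = 0.0268), again higher at 8 of 8 times. Its call was lost without the 120, the 180 or the 240 min arrays, and its early difference was 0.16 against 0.98 late.

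Hoxc8, which patterns thoracic segments and limb motor neurons, had the smallest p among the Hox genes that were lower. Wild type was read at 217, 196 and 195 early, 111 in the library labelled 60 min, 101, 92.8 and 69.0 late, and 154 in the library labelled 480 min. The knockout was read at 31.5, 35.4 and 31.3, then 36.6, then 28.5, 20.3 and 37.1, then 43.2. No knockout array reached the lowest wild-type array. The difference was -1.88 (SE 0.19, limma adjusted p = 3.56e-05), a 3.68-fold difference, with the knockout higher at 0 of 8 times.

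Hoxb9, a posterior gene of the rib-bearing segments, was at 46.3, 67.5 and 134 early in wild type, 52.6 in the library labelled 60 min, 97.4, 46.2 and 59.7 late, and 120.2 in the library labelled 480 min. The knockout was at 16.2, 10.0 and 1.66, then 20.4, then 4.86, 15.6 and 8.93, then 5.29. Every knockout array lay below every wild-type array, but only 2 of the 8 knockout arrays exceeded the filter signal, so the gene entered the test through wild type. The fitted difference of -2.47 (SE 0.37, limma adjusted p = 4.73e-04) moved from -2.84 to -1.85 when the offset was divided or multiplied by 3. Hoxa9, Hoxb9 and Hoxc8 were the 3 of 24 genes whose genotypes did not overlap, beside 8.46% of all genes. Hoxc9 (0.17, SE 0.32) and Hoxd9 (0.21, SE 0.28), the remaining tested paralogs of number 9, were not called.

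Hoxb3, an anterior gene of hindbrain and pharyngeal arches, was read at 1182, 1165 and 1089 early in wild type, 377 in the library labelled 60 min, 291, 471 and 490.4 late, and 740.2 in the library labelled 480 min. The knockout was read at 654, 589 and 610.3, then 342, then 293, 344 and 337, then 356. Wild type was the higher one at 7 of 8 times. The difference was -0.60 (SE 0.13, limma adjusted p = 0.00456), and it was not called with the deposited scaling or without time as a block. Hoxb2, Hoxb5 and Hoxb6 had differences of -0.30, -0.64 and -0.39 and were not called over all 16 arrays. Without the 60 and 480 min arrays, where the wild-type labels are in doubt, 6 Hox genes were lower, beside 20.2% of all genes, and these 3 were the added ones. In that fit 5 were higher, beside 20.9%, and they were the same 5 genes. Leaving out 60 min alone also gave 6 lower.

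**Figure D2:**
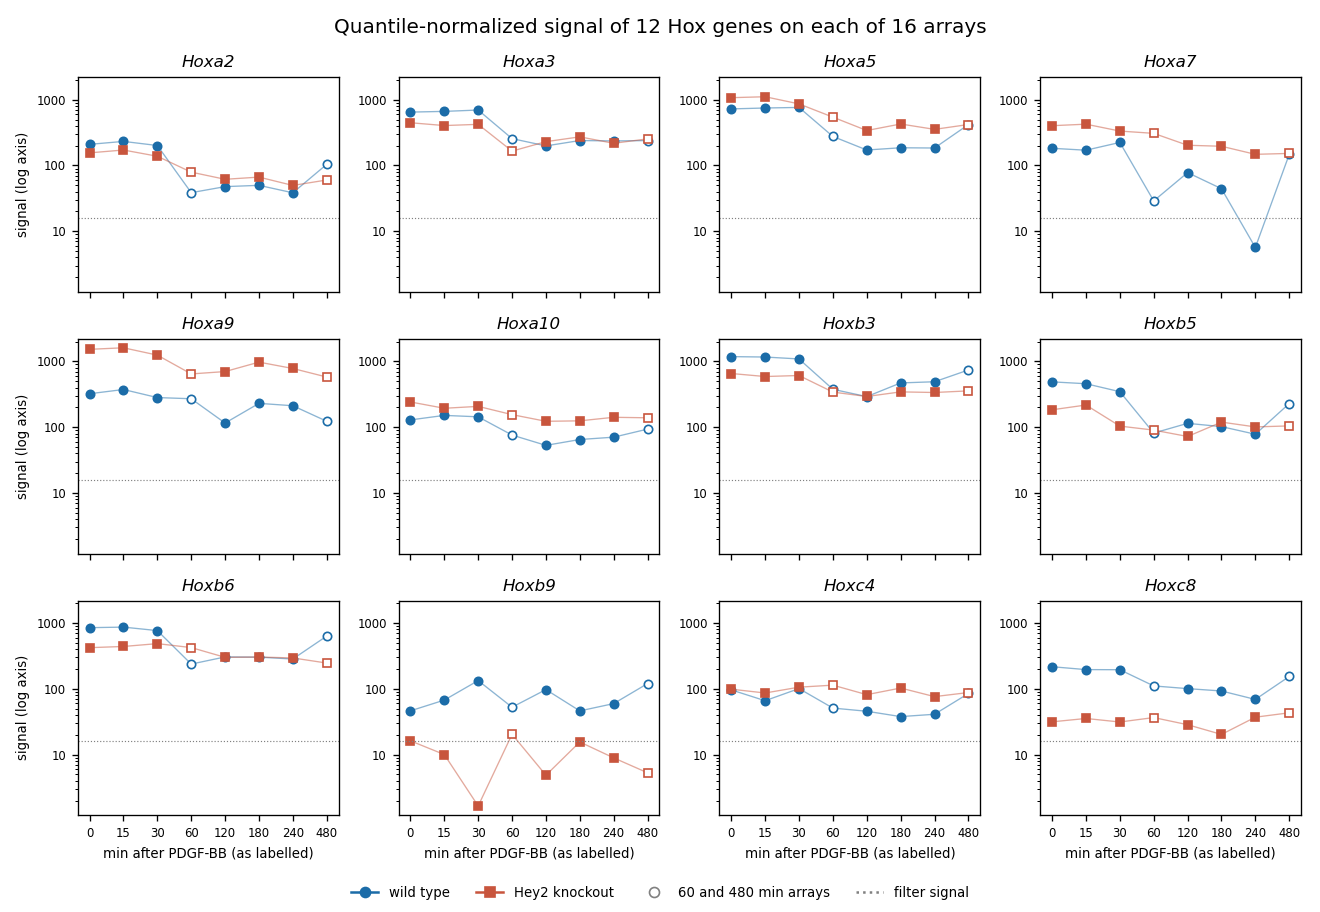
Quantile-normalized signal (log axis, same range in each panel) of 12 Hox genes on every array against the labelled time after PDGF-BB, wild type in blue and Hey2 knockout in red, 1 array per point. Open symbols are the 60 and 480 min arrays, and the dotted line is the filter signal of 16. Hoxa9 and Hoxc8 are split by genotype at every time, and Hoxa3, Hoxb5 and Hoxb6 fall from unequal early levels to closer late ones.

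The second question was how the Hox genes changed once the response to PDGF-BB had run for 120 min or more. The mean of 120, 180 and 240 min was compared with that of 0, 15 and 30 min over the 12 arrays of these times. Of 24 Hox genes 14 fell, beside 27.5% of all genes tested, and 0 rose, beside 18.4%. With an unadjusted limma p under 0.05 also 0 rose, and limma was the one tool run. The median change was -0.76 for the Hox genes and -0.06 for all genes. In Hoxa 7 of 9 fell, in Hoxb 4 of 7, in Hoxc 3 of 6 and in Hoxd 0 of 2. Among the 13 genes above the filter on every array 11 fell, and the other 2 were Hoxb2 (-0.06) and Hoxc6 (-0.33). No share is at hand for all genes above the filter on every array, and the 27.5% includes dimmer genes. With all 16 arrays in the fit 13 fell, beside 17.8%.

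Hoxa2, which patterns the second pharyngeal arch, fell from 210, 232 and 201 to 47.7, 49.9 and 38.5 in wild type, while the libraries labelled 60 and 480 min read 38.6 and 104. In the knockout it went from 156, 172 and 138 to 61.7, 66.6 and 49.8, with 79.2 at 60 min and 60.2 at 480 min. No late array of either genotype reached an early one. The change was -1.73 (SE 0.16, limma adjusted p = 4.20e-06), a 3.31-fold fall. Hoxa5, whose signals are given above, changed by -1.72 (SE 0.12, limma adjusted p = 4.95e-07). Hoxa7 changed by -1.78 (SE 0.32), or by -1.28 without the 240 min arrays.

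Hoxa3, needed in mice for thymus, parathyroid and the third arch artery, was at 648, 665 and 697 early and 199, 240 and 236 late in wild type, with 256 and 239 in the libraries labelled 60 and 480 min. The knockout was at 447, 405 and 422 early and 230.4, 273 and 217 late, with 166 at 60 min and 254 at 480 min. Early and late arrays did not overlap in either genotype, and the change was -1.19 (SE 0.14, limma adjusted p = 2.45e-05). Of its other 2 tested probe sets one fell (-0.60) and one was not called (-0.08). The probe set of Hoxa3 that did not fall was lower in the knockout (-0.50), which the brightest one was not.

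Hoxb5, known in mice as an activator of an endothelial receptor gene, was at 489, 458 and 346 early and 114, 102 and 78.1 late in wild type, with 81.4 and 229 in the libraries labelled 60 and 480 min. The knockout was at 184, 217 and 104 early and 72.2, 119 and 101 late, with 90.2 at 60 min and 105 at 480 min. The wild-type periods were apart, while those of the knockout overlapped. The change was -1.40 (SE 0.24, limma adjusted p = 4.84e-04). Hoxb6, its neighbour, was at 851, 868 and 768 early and 306, 303 and 284 late in wild type, with 238 and 634 in the libraries labelled 60 and 480 min. The knockout was at 423, 441 and 487 early and 301, 304 and 295 late, with 424 at 60 min and 247 at 480 min. Both genotypes were apart between periods (-1.02, SE 0.15). Hoxb3 changed by -1.20 (SE 0.12, limma adjusted p = 7.08e-06) and Hoxb4, known for the self-renewal of blood stem cells, by -0.89 (SE 0.15), each on both of its tested probe sets.

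Hoxc5 was at 29.3, 34.8 and 24.0 early and 2.76, 20.0 and 1.88 late in wild type, with 16.5 and 27.0 in the libraries labelled 60 and 480 min. The knockout was at 31.4, 26.9 and 23.7 early and 17.9, 15.9 and 17.5 late, with 24.3 at 60 min and 9.95 at 480 min. Its signals lay close to the filter, and its change of -1.10 had the large error that goes with them (SE 0.32, limma adjusted p = 0.0142). The remaining calls were Hoxa4 (-0.83), Hoxa9 (-0.84), Hoxa10 (-0.91), Hoxc4 (-0.57) and Hoxc8 (-0.69). The second tested probe sets of Hoxa4 (0.10) and Hoxa9 (-0.47) were not called over time. That of Hoxa4 read 1.26 to 19.2, at or under the filter on most arrays, so it could show little of a fall. The brightest one of Hoxa4 read 12.9 to 47.8. Hoxb9 was at -0.03 with an SE of 0.37. For the change within the knockout, the calls of Hoxa4, Hoxc4, Hoxc5 and Hoxc8 were lost. Hoxa4 was also lost when its 2 tested probe sets were averaged, Hoxc4 without the 30 or the 240 min arrays, and Hoxc8 without the 180 min arrays.

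In 11 of the 24 genes every late array lay below every early array in both genotypes, beside 16.8% of all genes. The RNA of the arrays also differed between periods. The ratio of 3′ to 5′ Actb probe sets was 2.41 to 3.88 early and 1.53 to 1.84 late in wild type, and 1.95 to 3.71 and 1.54 to 2.44 in the knockout. That of Gapdh was 3.22 to 4.49 and 2.59 to 3.21 in wild type, and 3.19 to 5.65 and 2.44 to 4.64 in the knockout. The summed fibroblast markers were at 4534 to 6790 on the early arrays and 3415 to 4551 on the late ones, with 3 of 7 fallen and 1 risen, while 6 of 12 smooth muscle markers rose and 0 fell. The part of RNA ends and of these cell markers in the fall of the Hox genes was not tested. With the deposited scaling, which moves the median of all genes to 0.15, 4 of the Hox genes fell (Hoxa2, Hoxa5, Hoxa7 and Hoxb5) at a Hox median of -0.48. With every array scaled to one trimmed mean the Hox median was -0.94 and that of all genes -0.14. Against 0 min alone 8 fell. For this count and that of the deposited scaling no share over all genes is at hand, so neither is set against a background.

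The third question was how the genotype pattern and the fall relate. The 14 genes that fell held all 5 that were higher in the knockout. They also held 2 of the 3 that were lower, Hoxb3 and Hoxc8, while 7 were not called by genotype. No share of all genes called in both comparisons is at hand, so this overlap is a description only. Hoxa11, Hoxa13, Hoxb1, Hoxc9, Hoxc13, Hoxd3 and Hoxd9, with signals near the filter, were called in neither comparison. Hoxb9 was lower in the knockout without a called change over time. In wild type taken alone 14 fell, beside 26.6% of all genes, and they were the same 14. Within the knockout 11 fell, beside 18%, of which 10 were among the 14 and the other was Hoxc6. The fall was larger in wild type for 14 of the 14, beside 79.6% of all genes that fell, with a median over the 24 Hox genes of -0.94 in wild type and -0.54 in the knockout, against -0.06 and -0.07 for all genes.

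**Figure D3:**
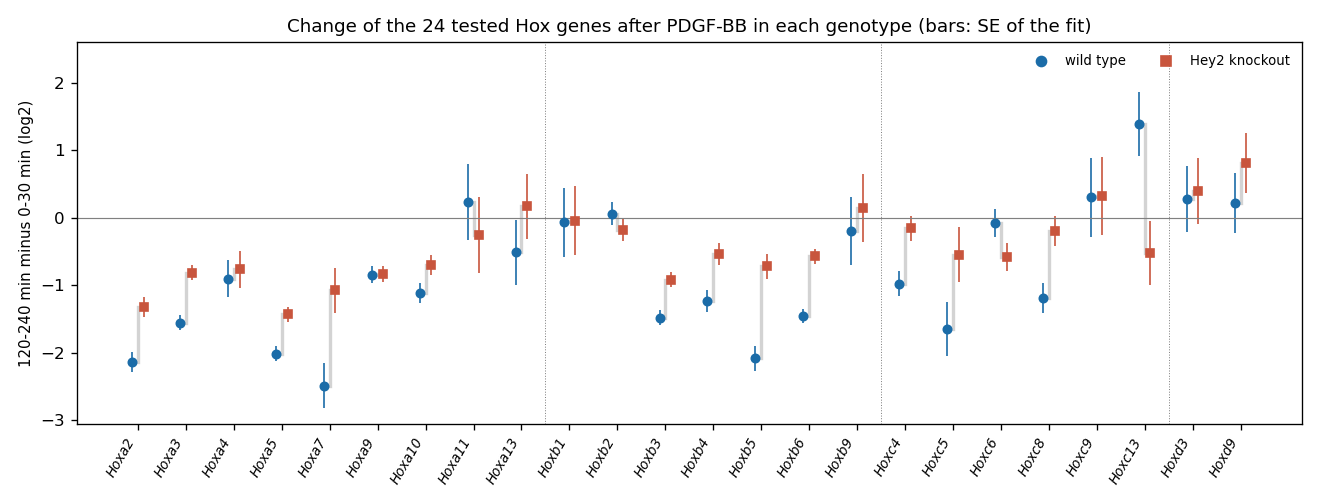
Mean of 120 to 240 min minus mean of 0 to 30 min (log2) for the 24 tested Hox genes in wild type (circles) and Hey2 knockout (squares), 3 arrays per mean, bars are the SE of the limma fit, dotted lines separate the clusters. Most wild-type points lie lower than their knockout partners, while those of Hoxa9 coincide.

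The difference between these changes was tested as an interaction. The knockout change lay above the wild-type change for 4 of 24 Hox genes, beside 2.06% of all genes, and below it for 0, beside 2.11%. With an unadjusted limma p under 0.05 these counts were 10 and 1. No share of all genes at the unadjusted threshold is at hand, and the percentages above are not its background. The 4 genes were Hoxb5 (1.36, SE 0.27, limma adjusted p = 0.0120), Hoxb6 (0.89, SE 0.15, limma adjusted p = 0.00471), Hoxa2 (0.81, SE 0.21, limma adjusted p = 0.0491) and Hoxa3 (0.74, SE 0.16, limma adjusted p = 0.0183). The median interaction was 0.57 over the Hox genes and 0.02 over all genes. These calls depend on the settings: 0 of the 4 remained with the deposited scaling, without the intensity trend or with all 16 arrays as labelled. Of these 4, 1 was called without the 0, the 30 or the 180 min arrays, 2 without 15 min and 3 without 120 or 240 min. Without 120 min Hoxa7 was called as well. Hoxa2 lost its call whichever of these times was left out, and Hoxa3 lost it when its tested probe sets were averaged. The estimates of all 4 genes stayed above 0 in each of these settings.

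At 0 to 30 min 7 Hox genes were lower in the knockout, beside 17.5% of all genes, and 4 were higher, beside 17.7%. The 7 were Hoxa2, Hoxa3, Hoxb3, Hoxb5, Hoxb6, Hoxb9 and Hoxc8. At 120 to 240 min 4 were lower, beside 17%, and 5 higher, beside 18.6%. Hoxb5 went from -1.38 early (SE 0.19) to -0.02 late, Hoxb6 from -0.87 (SE 0.11) to 0.01, and Hoxa3 from -0.65 (SE 0.11) to 0.09. On the brightest probe sets of these genes the late levels of the genotypes lay close together. The other tested probe sets of Hoxa3 differed in this. The one that also fell read 155, 130 and 113 late in the knockout against 73.4, 85.9 and 88.8 in wild type. The one that did not fall read 16.3, 15.6 and 15.7 against 36.4, 29.7 and 33.0. Hoxa2 went from -0.46 (SE 0.15, called) to 0.35 (SE 0.15, not called), so its early difference was not kept and a reversal was not shown. Hoxa9 held its difference, with 2.15 early and 2.16 late (SE 0.12 each), and its changes in wild type and knockout were -0.85 and -0.84 (interaction 0.01, SE 0.17).

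**Figure D4:**
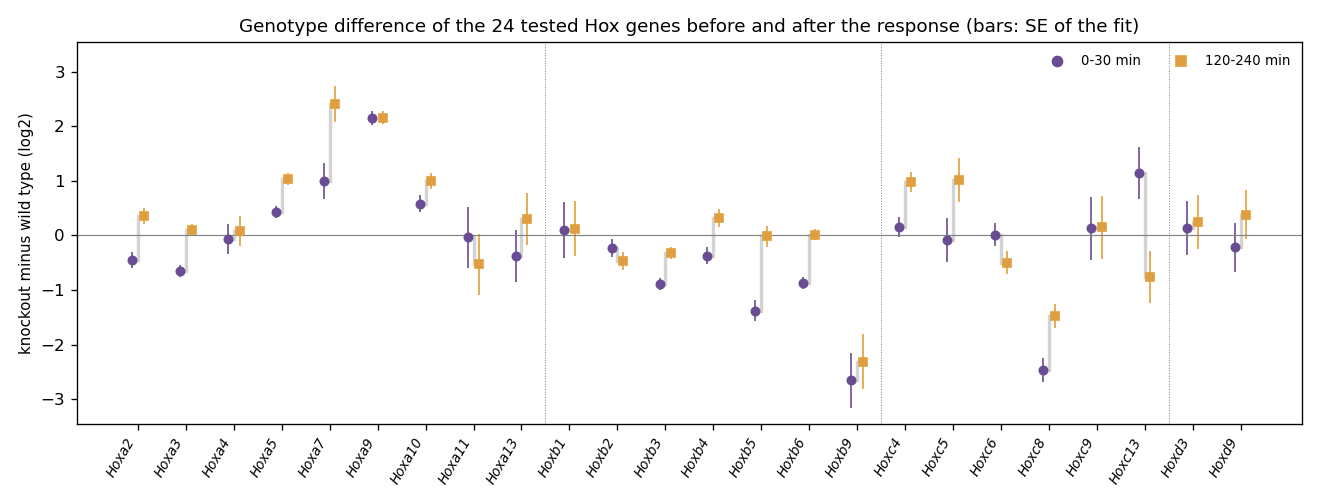
Knockout minus wild type (log2) for the 24 tested Hox genes at 0 to 30 min (circles) and 120 to 240 min (squares), 3 arrays per genotype and period, bars are the SE of the limma fit, dotted lines separate the clusters. Hoxb5, Hoxb6 and Hoxa3 lie below 0 early and near 0 late, and Hoxa9 keeps a difference of about 2.15.

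The 60 and 480 min arrays entered none of these period means. For 13 of the 14 genes that fell, the library labelled wild type 60 min lay below every early wild-type array, as it did for 84.1% of all genes that fell. For 13 the library labelled wild type 480 min lay between the early and late means, against 73.8% of all that fell. In the knockout, 9 of the 14 had their 60 min value between these means, against 61.8%, and 11 were below every early array at 480 min, against 80.2%. These counts are near those of all genes that fell and are no result about the Hox genes.

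Partners and neighbours of the Hox genes were set beside them. Over all genes tested, 16.5% were higher and 14.1% lower in the knockout, and 18.4% rose and 27.5% fell, which is the background for each count here. Of 9 TALE cofactors 8 were tested, 2 were higher and 2 lower in the knockout, and 2 rose and 4 fell after PDGF-BB. Pknox2 was the largest, at 2.22 (SE 0.29), and Pbx3 was higher by 0.81, while Pknox1 (-0.46) and Pbx2 (-0.33) were lower. Meis2 (-1.16), Meis1 (-0.75) and Pbx2 (-0.60) fell late, and Pknox1 rose by 1.33. The medians of this list were 0.13 by genotype and -0.28 over time.

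Of 34 symbols for Polycomb, trithorax and related chromatin regulators 29 were tested. Their median genotype difference was -0.16, with 0 higher in the knockout and 9 lower. Phc1 (-0.78) and Rnf2 (-0.76), subunits of Polycomb complex 1, Suz12 (-0.57) of Polycomb complex 2 and the methyltransferase Kmt2d (-0.45) were among the lower ones. After PDGF-BB 12 fell and 4 rose. Kdm6a, a demethylase of the Polycomb mark (-1.17), Cbx6 (-1.01) and Ezh1 (-0.81) fell, and Phc2 rose by 0.86.

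Of the upstream signals, which include retinoic acid enzymes and Cdx factors, 12 of 20 were tested, with 3 higher, 3 lower, 3 that rose and 2 that fell. Aldh1a3, a retinoic acid synthase, was at -4.66 and its relative Aldh1a2 at 1.25, and Crabp2, a retinoic acid carrier, was at 3.01. The mean level of Aldh1a3 in the knockout (3.48, as log2 of signal plus offset) and that of Crabp2 in wild type (3.43) lay below the filter, where the offset sets much of the size. Cdx2, an activator of Hox genes in the embryo, was at -1.90. It exceeded the filter on only 1 of 8 knockout arrays and entered the test through wild type, so the same limit holds for it. After PDGF-BB Egr2, which acts on Hox genes in the hindbrain, rose by 2.06, and Cyp26b1, which breaks down retinoic acid, fell by 1.09.

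Genes that flank the clusters on the chromosome were compared too. Of 18 tested, 1 was higher and 6 lower in the knockout, and 2 rose and 8 fell. Beside Hoxa, where 4 Hox genes were higher, 3 of 4 neighbours were lower, Snx10 (-1.11), Skap2 (-0.67) and Hibadh (-0.45), and all 4 fell after PDGF-BB. Beside Hoxb 0 of 4 were called by genotype, beside Hoxc 3 of 5 were lower, and beside Hoxd Mtx2 was higher (0.43). Of 24 tested homeobox and positional factors outside the clusters 2 were higher and 7 lower, among them Tbx20 (-1.90), Lhx9 (-1.18), Foxf1 (-1.14) and Irx5 (-1.01). Tbx20 exceeded the filter on 2 of 8 knockout arrays, so its size also depends on the offset. Over time 5 fell, Tbx18 (-1.55), Prrx1 (-1.27) and Gata6 (-0.73) included, and 2 rose, among them Irx3 (1.69).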

How the data were processed

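Signal intensities of 16 Affymetrix arrays, 1 for each genotype and time, were deposited by the authors, with MAS5 as the tool, per the submitters' processing notes. The sources used here state no version, scaling target or genome build. Samples were grouped by their titles. The members and gene lists were chosen with earlier results of these data known.

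The intensities were quantile normalized and put on the scale log2(signal + 4.856). The offset was the 20th percentile of all values and the filter signal of 16 the 40th. Gene symbols came from the platform annotation, and all 33 member symbols matched RefSeq names. The tests were run in limma 3.58.1 (R 4.3.3) with an intensity trend over 14299 genes. The genotype fit had time as a factor (16 arrays, 7 residual degrees of freedom). The change over time was fitted on 12 arrays (5), and the interaction added genotype by period (4). Errors are standard errors of these fits, and the number of arrays limits their precision. Signals of every array are given for members called with a difference of at least 1 on the log2 scale. From each list up to 4 genes with the smallest p per comparison were eligible to be named, if called. The scripts were checked on simulated data. Alternatives covered scaling, offset, filter, probe sets, trend, time points left out, block and early reference, and the genotype difference in each period was added after the data had been seen.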

Additional observations from a re-analysis of the deposited data

Results flagged for a closer look

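The change after PDGF-BB differed between the genotypes by the interaction test for 4 Hox genes. The knockout change minus the wild-type change was 0.81 for Hoxa2 (SE 0.21), 0.74 for Hoxa3 (SE 0.16), 1.36 for Hoxb5 (SE 0.27) and 0.89 for Hoxb6 (SE 0.15), on the log2 scale over 12 arrays. Of 17 alternative settings, the call was kept in 4 for Hoxa2, 8 for Hoxa3, 10 for Hoxb5 and 14 for Hoxb6.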

How the results depend on the processing

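No called difference of a Hox gene changed sign under the alternatives tried. The 3 genes lower in the knockout became 6 with 12 arrays and 7 for the difference at 0 to 30 min, and ranged from 3 to 6 as 1 time was left out. The 14 genes that fell became 4 as deposited and 8 against 0 min alone, without a share over all genes for either count. The 0 that rose became 1 for the change within wild type (Hoxc13, 1.38). The 4 interaction calls became 0 as deposited, 0 without the intensity trend, 0 with all 16 arrays as labelled and 1 with 4 groups and no time block, and ranged from 1 to 4 as 1 time was left out, of which 1 to 3 were among the original 4. In the fits with fewer arrays the sample number changed too, and otherwise the cause was not tested. Deposited scaling moved the median of all genes by genotype to 0.28, and the share of calls that were higher from 54% to 87.9%, and over time the share that rose from 40.1% to 78.6%. No paired analysis was possible because each group holds 1 array, other than time as a factor, which all the main fits already held. Signals near 16 limit Hoxb9, Hoxc5, the second probe set of Hoxa4, and the posterior and Hoxd genes.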

Other observations

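Hoxc10, a lumbar and hindlimb gene, did not reach the filter on any array. Its only probe set read 0.89 to 3.13 in wild type and 4.89 to 15.99 in the knockout, so that the genotypes did not overlap. In a fit of 18193 genes without the filter the difference was 1.29 (SE 0.19, limma adjusted p = 5.03e-04), at signals where the array measures little. The other 8 untested Hox genes were not called in that fit.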
